A study of Elaeis guineensis with 58 samples.

Results

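GPAT and PTE are 2 of the 27986 genes counted in the spear leaf, the youngest and still folded frond, of oil palm (Elaeis guineensis). They were taken by their symbols, and both were found in every one of the 58 libraries. The palms were ortets, which are the trees that supply tissue for cloning, and came from 2 agencies named L1 and L2. The number of embryoid lines obtained from each ortet in the past had placed it in the zero group, the low group with 1 to 89 lines or the high group with 90 or more. L2 supplied 8 high palms, of which 6 were labelled Jen Avros, 1 Yangambi_C (high palm 7) and 1 Jen Avros Yangambi (high palm 8), with 91 to 534 lines. Its 6 low palms were 4 Yangambi_B, 1 Jen Avros (low palm 1) and 1 Yangambi_C (low palm 3), with 2 to 37 lines, and its 6 zero palms were all Yangambi_A. L1 supplied 15 low palms, 7 labelled Dumpy Avros and 8 Dumpy Yangambi Avros, with 1 to 48 lines and a median of 2, and 17 zero palms, 5 Dumpy Avros and 12 Dumpy Yangambi Avros. RNA of the L1 palms was extracted with CTAB and read over 100 bases. RNA of the 20 L2 palms was extracted with the InnuPREP kit and read over 50 bases, and 6 of them had a second library made from a CTAB extraction. Replicates were separate palms, and no age or treatment was given in the labels.

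GPAT stands for glycerol-3-phosphate acyltransferase, the enzyme that puts the first fatty acid onto glycerol-3-phosphate and so opens the assembly of membrane and storage glycerolipids. Plants have several enzymes of this name, in the plastid, in the endoplasmic reticulum and in cutin and suberin synthesis, and the gene table used here does not say which of them this one is. PTE carries the synonym FATB1 in that table. FATB thioesterases release saturated fatty acids, palmitate foremost, from the acyl carrier protein on which the plastid builds them. In oil palm, palmitate is a main fatty acid of the fruit oil, while in a leaf both steps serve membranes and the surface lipids of the epidermis. A thioesterase thus acts upstream, where fatty acids leave the plastid pathway, and an acyltransferase downstream, where they are attached to glycerol.

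Counts assigned to genes ran from 3943437 to 15004694 per library. GPAT had 84 to 443 reads per L2 InnuPREP library and 97 to 337 per L1 library, and PTE had 522 to 1415 and 94 to 510 in the same sets. The 9 plastid leaf genes used as tissue markers, rbcL and psbA among them, were detected in all 58 libraries. QuantSeq libraries hold reads from the 3′ end of each transcript, so counts were not divided by gene length, and the ratio of GPAT to PTE reads was compared between libraries only. In whole leaf tissue, fewer cells of a type and less RNA per cell cannot be told apart. Of the 8 high palms, 7 carried palm identifiers that begin with U and no other palm did, so identifier and group nearly coincide. High 8 was the exception.

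Over the 58 libraries GPAT lay between 6.33 and 47.8 CPM, with a median of 26.8 CPM. CPM is the field's depth-normalised read count, here scaled by edgeR's TMM factors. PTE lay between 15.3 and 136 CPM, with a median of 38.7 CPM. The ratio of GPAT to PTE reads ran from 0.130 in an L2 high palm to 2.84 in an L1 low palm. The 2 genes therefore separated the libraries in different ways. Among the L1 libraries, all from CTAB, and the InnuPREP libraries of L2, group means of GPAT were lowest in L2 high palms, at 12.3 ± 5.11 CPM (SD, n = 8), followed by L1 low palms at 26.6 ± 9.18 CPM (SD, n = 15), L2 low palms at 27.9 ± 6.49 CPM (SD, n = 6), L1 zero palms at 30.0 ± 5.95 CPM (SD, n = 17) and L2 zero palms at 30.0 ± 8.84 CPM (SD, n = 6). Neighbours in that order after the high palms differed by less than 1 SD. The order mixes extractions, between which GPAT differed within palms as given further on. In the CTAB libraries of L2, GPAT had 9.70 and 36.3 CPM in 2 high palms, 47.0 and 47.8 CPM in 2 low palms and 23.6 and 38.7 CPM in 2 zero palms. For PTE the order followed the extraction. The means were 33.2 ± 9.99 CPM in L1 (SD, n = 32), 38.3 ± 11.8 CPM in the CTAB libraries of L2 (SD, n = 6) and 80.1 ± 22.2 CPM in the InnuPREP libraries of L2 (SD, n = 20).

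**Figure D1:**
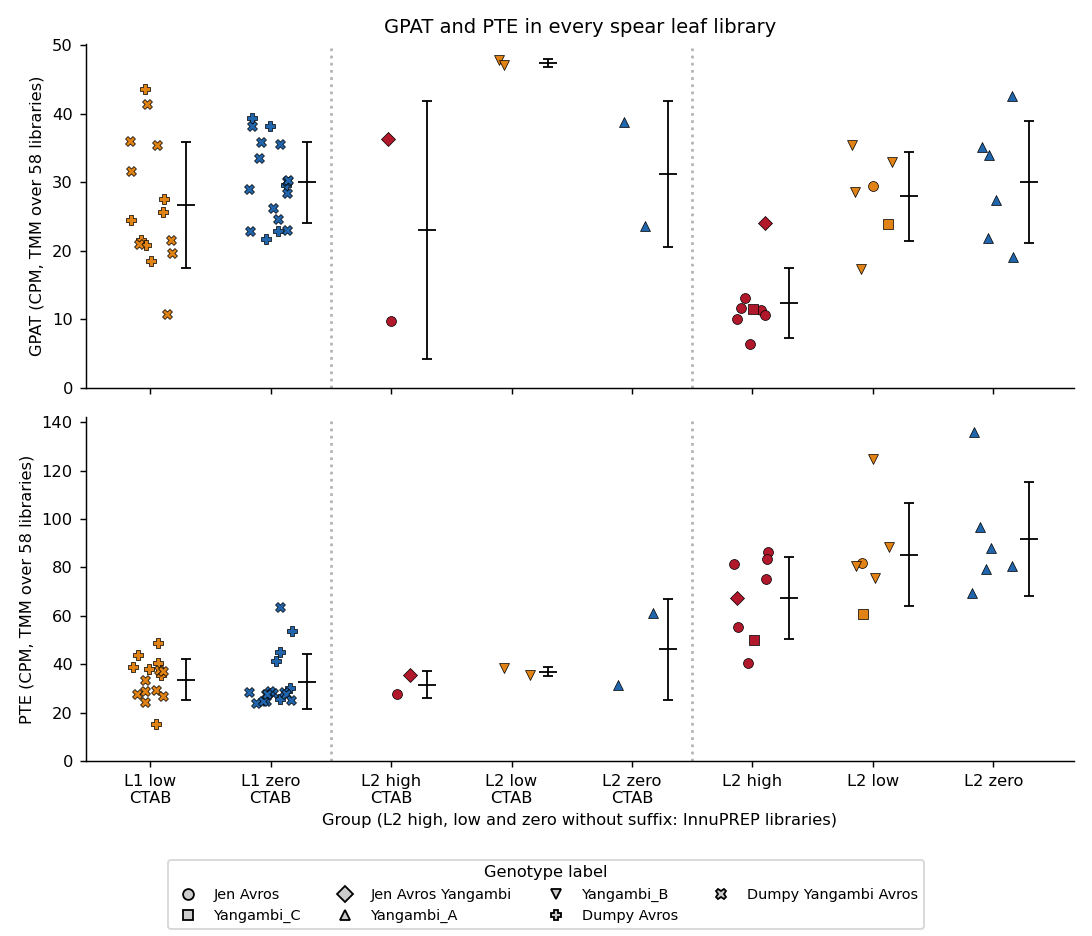
GPAT (upper panel) and PTE (lower panel) in CPM scaled by TMM over all 58 libraries, with 1 symbol per library, shaped by genotype label and coloured by embryogenesis group; the bar to the right of each group is its mean ± SD. Among InnuPREP libraries the L2 high palms other than high 8 (diamond) sit lowest for GPAT, where 1 L1 low palm reaches down among them at 10.8 CPM, and PTE is highest in the InnuPREP libraries of L2.

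The first comparison, set out in the series' design text, was between high palms and the zero and low palms together within L2. GPAT was lower in high palms. Its lowest, median and highest values were 5.78, 10.4 and 21.8 CPM in the 8 high palms, against 15.9, 26.5 and 38.8 CPM in the 12 zero-low palms. Of the 8 high palms, 7 lay below every zero-low palm, between 5.78 and 11.99 CPM, and all 8 lay below the zero-low mean. High 8 at 21.8 CPM was the one that overlapped, above 4 zero-low palms. The log2 difference was -1.22 ± 0.21 (SE; 95% interval -1.65 to -0.80), or 2.34-fold lower, with an edgeR quasi-likelihood adjusted p of 0.000133. This contrast called 40.5% of the 20008 genes tested, 20.3% as lower, so that a call alone does not set GPAT apart. By p-value GPAT ranked 883rd.

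PTE was not called in the same fit. Its lowest, median and highest values were 37.1, 65.1 and 79.4 CPM in high palms, against 55.2, 73.7 and 125 CPM in zero-low palms. All 8 high palms lay below the zero-low mean, but only 3 of them, high 2, high 3 and high 7, lay below every zero-low palm. The highest high palm, at 79.4 CPM, lay above 8 of the 12 zero-low palms. The log2 difference was -0.38 ± 0.17 (SE; 95% interval -0.72 to -0.04), with an edgeR adjusted p of 0.0705. Without low 3, the zero-low palm of lowest PTE, the log2 difference was -0.43 with an edgeR adjusted p of 0.0372, and limma-voom with quality weights gave -0.38 with an adjusted p of 0.0409. In 19 of the 20 fits that leave out 1 palm PTE stayed uncalled. It was also uncalled with DESeq2 (-0.39, adjusted p 0.0592) and with genotype as a term (-0.24, edgeR adjusted p 0.693). With CTAB libraries standing in for 6 palms, PTE differed by -0.18 (edgeR adjusted p 0.617).

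The wider pathway could be followed in a list of 4 genes only, since LOC identifiers come without product names in the gene table. Beside GPAT and PTE the list holds LOC105048931, with the synonym SACPD for the stearoyl-ACP desaturase that puts the first double bond into stearate, and plastid accD, which encodes a subunit of the acetyl-CoA carboxylase that makes malonyl-CoA for fatty acid synthesis. In high against zero-low palms 1 of the 4, GPAT, was called as lower and none as higher, in a contrast that called 40.5% of all genes, 20.3% as lower. The median log2 difference of the list was -0.35, beside 0.01 over all genes tested. SACPD averaged 314 ± 75.3 CPM in high palms and 307 ± 75.7 CPM in zero-low palms (SD, n = 8 and 12), a log2 difference of 0.03 with an edgeR adjusted p of 0.894. The averages of accD were 296 ± 88.1 CPM in high palms and 371 ± 102 CPM in zero-low palms, a log2 difference of -0.33 with an edgeR adjusted p of 0.177. Neither gene of fatty acid synthesis beside PTE was called.

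Group and genotype are tied in L2, as no zero palm shares a label with a high palm. Within the labels that hold both a high and a low palm, GPAT was lower in the high ones. The 6 Jen Avros high palms lay between 5.78 and 11.99 CPM, against 26.7 CPM in the only Jen Avros low palm. For Yangambi_C the high palm had 10.7 CPM and the low palm 21.7 CPM. PTE in the same palms lay between 37.1 and 79.4 CPM in Jen Avros high palms, with the Jen Avros low palm at 74.5 CPM inside that range, and at 46.3 CPM in the Yangambi_C high palm against 55.2 CPM in the low one. With genotype as a term the log2 difference of GPAT was -1.33 ± 0.30 (SE; edgeR adjusted p 0.0155), and that fit called 1241 of the 22063 genes tested. There the GPAT difference rested only on Jen Avros and Yangambi_C, the labels with both groups, each with a single low palm. Among Jen Avros palms alone it was -1.47 with an edgeR adjusted p of 0.0568, a fit that rests on a single low palm assumed to vary like the others. With a term for identifiers that begin with U, the difference of GPAT was -0.28 ± 0.38 (SE; edgeR adjusted p 0.955). That fit called 1 gene, since only high 8 then carries the difference between the groups, so identifier and group cannot be told apart for GPAT.

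Some measures of library quality also differed between the groups. In high palms 9.35% ± 0.507 of reads lay outside any gene (SD, n = 8), against 10.1% ± 0.651 for zero-low palms (SD, n = 12). The 10 most abundant genes took 10.8% ± 1.99 of gene counts in high palms, against 8.24% ± 1.18 for zero-low palms. In a fit with both shares as terms GPAT had a log2 difference of -1.11 ± 0.31 (SE; edgeR adjusted p 0.0423), while the genes called fell to 1109 of those tested. Reads with several alignments (14.06% in high, 14.10% in zero-low palms) and plastid genes (3.05% and 3.09%) had nearly equal mean shares. With terms for these 2 shares and depth, GPAT differed by -1.29 ± 0.215 (SE; edgeR adjusted p 0.000304), and 7745 genes were called. Leaving out any 1 of the 20 palms gave GPAT log2 differences from -1.43 to -1.12, with edgeR adjusted p-values from 9.38e-06 to 0.000438. The lowest of these came without high 8. When the CTAB library stood in for the InnuPREP library of the 6 palms that had both, GPAT differed by -1.19 (edgeR adjusted p 0.00186). That fit mixes extractions with no term for the method. In CTAB libraries alone, with 2 high palms, GPAT differed by -0.79 (edgeR adjusted p 0.569).

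**Figure D2:**
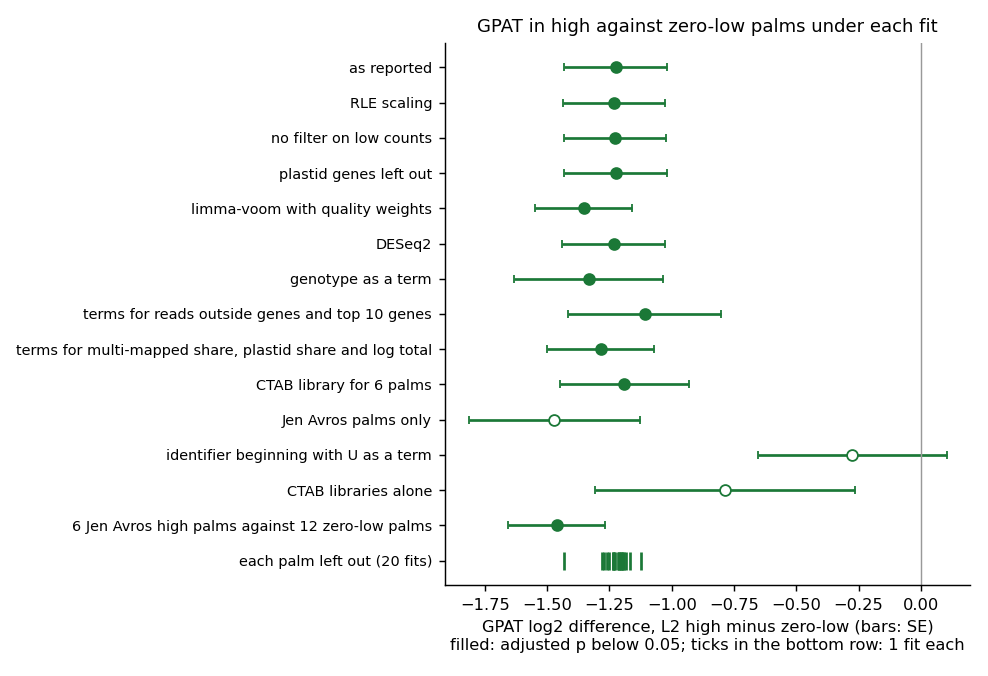
GPAT log2 difference, L2 high minus zero-low palms, under each fit, with bars for the SE, filled points where the adjusted p was below 0.05 and ticks for the 20 fits that leave out 1 palm each. All points lie left of 0; the fit with a term for identifiers beginning with U is nearest to it at -0.28, and the fits on CTAB libraries alone, that term and Jen Avros palms alone were not called.

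When the L2 groups were fitted separately, the lower GPAT of high palms appeared against each of the other 2 groups. GPAT averaged 11.3 ± 4.61 CPM in the 8 high palms, 25.5 ± 5.93 CPM in the 6 low palms and 27.3 ± 8.06 CPM in the 6 zero palms (SD). The high palms shared in both contrasts make the 2 differences dependent. High minus zero was -1.27 ± 0.24 on the log2 scale (SE; edgeR adjusted p 0.000452), in a contrast that called 35.9% of the 20413 genes tested. High minus low was -1.17 ± 0.24 (SE; edgeR adjusted p 0.00149), in a contrast that called 28.1%. Low and zero palms of L2 overlapped throughout for GPAT, from 15.9 to 32.4 CPM in low palms and from 17.6 to 38.8 CPM in zero palms. Their log2 difference was -0.10 ± 0.25 (SE; 95% interval -0.63 to 0.43; edgeR adjusted p 0.918), in a contrast that called 0.176% of genes.

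For PTE the L2 means were 61.95 ± 15.9 CPM in high palms, 77.9 ± 19.8 CPM in low palms and 83.4 ± 21.9 CPM for zero palms (SD over 8, 6 and 6 palms). High minus zero was -0.43 ± 0.20 (SE; edgeR adjusted p 0.0905) and high minus low -0.33 ± 0.20 (SE; edgeR adjusted p 0.211). Low minus zero was -0.10 ± 0.21 (SE; 95% interval -0.53 to 0.34; edgeR adjusted p 0.894). No pairwise difference was called, and the low minus zero difference turned to 0.05 without zero 2, the palm of highest PTE.

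**Figure D3:**
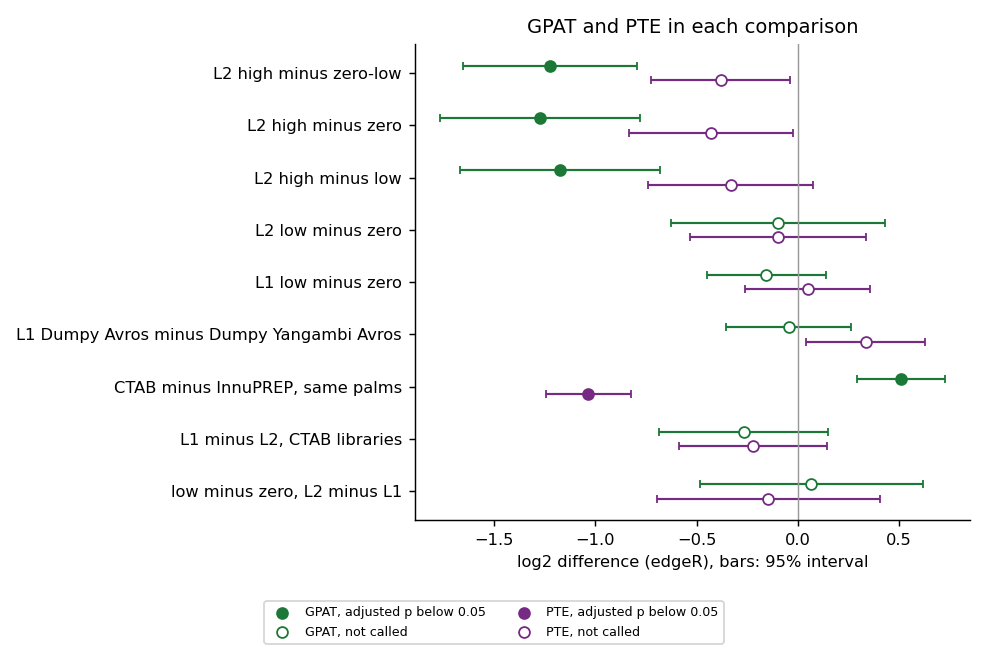
edgeR log2 differences of GPAT (green) and PTE (purple) in the 9 comparisons, with 95% intervals and filled points where the adjusted p was below 0.05. GPAT is called in the 3 contrasts with L2 high palms and in CTAB minus InnuPREP, while PTE is called only in CTAB minus InnuPREP, where the 2 genes lie on opposite sides of 0.

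The ratio of GPAT to PTE within a library needs no scaling between libraries. On the log2 scale its lowest, median and highest values were -2.94, -2.67 and -1.49 in L2 high palms, against -2.84, -1.41 and -1.03 in zero-low palms. The mean was -2.50 ± 0.50 in high palms (SD, n = 8), against -1.62 ± 0.63 for the zero-low palms (SD, n = 12). High palms thus had 1.84-fold fewer GPAT reads per PTE read. The difference of -0.88 had an exact two-sided permutation p of 0.00571, or 0.0457 after Benjamini-Hochberg adjustment over 8 comparisons of the ratio. That call held in only 4 of the 20 sets that leave out 1 palm, with differences from -1.02 to -0.81. In these sets the exact permutation p ran from 0.00152 to 0.012 unadjusted, and from 0.0122 to 0.0551 adjusted over the 8 comparisons. The adjustment kept the p-values of the other comparisons from all palms. The groups overlapped from both sides. High 8, at -1.49, lay above zero 1, low 6 and zero 5 as well as low 2 and zero 2. The last 2, at -2.84 and -2.83, combined the lowest GPAT of the zero-low palms, 15.9 and 17.6 CPM, with the highest PTE, 114 and 125 CPM. Against zero palms alone the ratio of high palms differed by -0.87, and against low palms alone by -0.88, each with an exact permutation p of 0.0551 after adjustment. Low and zero palms of L2 differed by 0.02 in mean log2 ratio (exact permutation p 0.963 after adjustment).

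**Figure D4:**
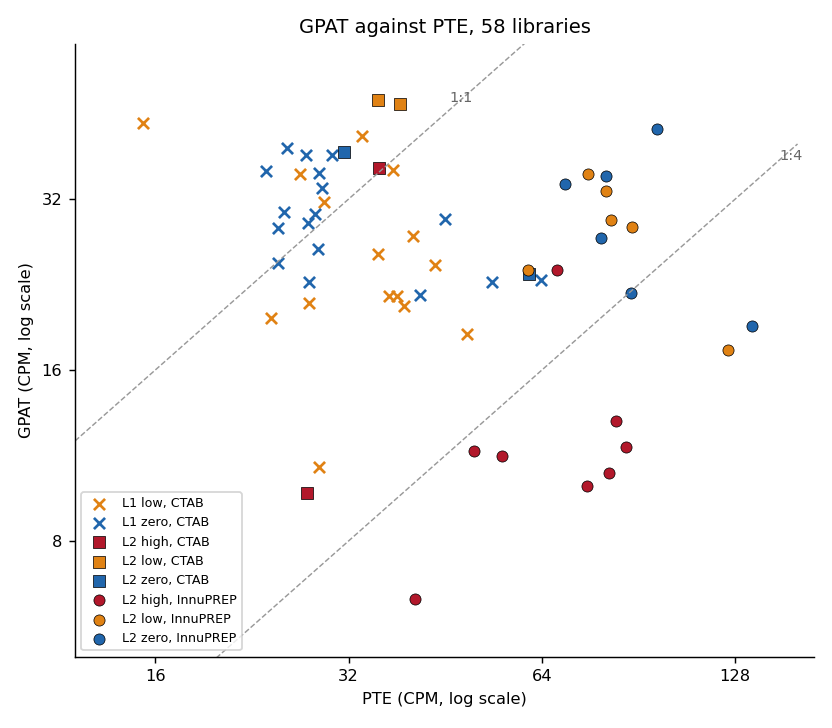
GPAT against PTE in CPM, both on log axes, for the 58 libraries; crosses are L1, squares the CTAB and circles the InnuPREP libraries of L2, and dashed lines mark GPAT to PTE ratios of 1:1 and 1:4. All but 1 of the L2 high InnuPREP libraries lie below the 1:4 line, while the L1 crosses lie on both sides of the 1:1 line, with a median ratio of 0.936.

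In L1, low palms were compared with zero palms. The lowest, median and highest GPAT values were 11.0, 25.8 and 45.5 CPM in the 15 low palms, against 22.6, 30.6 and 40.2 CPM in the 17 zero palms. Low palms thus held both extremes of the agency, low 15 at 11.0 CPM and low 12 at 45.5 CPM. The log2 difference was -0.16 ± 0.14 (SE; 95% interval -0.45 to 0.14; edgeR adjusted p 0.838). For PTE the values were 16.01, 36.4 and 51.7 CPM in low palms, against 24.6, 29.2 and 67.3 CPM in zero palms, with a log2 difference of 0.05 ± 0.15 (SE; 95% interval -0.26 to 0.36; edgeR adjusted p 0.965). Of the 18434 genes tested, edgeR called 0, or 0%, with 1337 at an unadjusted p under 0.05 and also 0 by DESeq2. Neither GPAT nor PTE stood apart from that background. The log2 ratio averaged -0.37 ± 0.75 in low palms and -0.09 ± 0.62 in zero palms (SD, n = 15 and 17; permutation p 0.329 after adjustment over 8 comparisons). Its highest value, in low 12, came from the highest GPAT and the lowest PTE of the agency in 1 palm.

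PTE was unevenly spread among the L1 zero palms. In 13 of the 17 it lay between 24.6 and 30.8 CPM, and in the other 4, zero 6, zero 2, zero 9 and zero 4, at 43.1, 46.9, 56.2 and 67.3 CPM. No zero palm lay between 30.8 and 43.1 CPM, where 7 of the 15 low palms were found. Of the 4 upper zero palms, 3 were Dumpy Avros, out of 5 with that label, and 1 was Dumpy Yangambi Avros, out of 12. This split was noticed in the values and was not tested. GPAT in the same 4 palms, between 22.6 and 30.6 CPM, stayed at or below the zero group's median, which was the value of zero 2.

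By genotype label, PTE averaged 39.5 ± 11.1 CPM in Dumpy Avros and 31.3 ± 9.37 CPM in Dumpy Yangambi Avros palms of L1 (SD, n = 12 and 20). The log2 difference was 0.34 ± 0.14 (SE; 95% interval 0.04 to 0.63), and with an edgeR adjusted p of 0.677 it was not called. No gene was called in this contrast, 0% of 18689, with 1315 at an unadjusted p under 0.05, PTE among them at 0.0265, and 18 called by DESeq2. GPAT averaged 28.8 ± 8.34 CPM in Dumpy Avros and 29.7 ± 7.91 CPM in Dumpy Yangambi Avros palms, a log2 difference of -0.05 ± 0.15 (SE; edgeR adjusted p 0.965). The log2 ratio differed by -0.35 between the labels (permutation p 0.271 after adjustment).

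Both genes differed between CTAB and InnuPREP libraries of the same palms, in opposite directions. In the 6 L2 palms with a library from each method, GPAT averaged 35.4 ± 15.4 CPM with CTAB and 24.9 ± 10.9 CPM with InnuPREP (SD, n = 6). It was higher with CTAB in 6 of 6 palms. Its CTAB and InnuPREP values were 10.0 and 6.57 CPM in high 3, 37.5 and 24.5 CPM in high 8, 50.3 and 33.7 CPM in low 5, 48.9 and 29.7 CPM in low 6, 24.97 and 19.1 CPM in zero 2, and 40.4 and 35.8 CPM in zero 6. High 3 was the lowest palm with either method. With the palm as a block the log2 difference was 0.51 ± 0.10 (SE; edgeR adjusted p 0.000343), in a contrast that called 53.8% of the 20803 genes tested, 25.3% as higher with CTAB and 28.5% as lower. PTE averaged 40.0 ± 12.6 CPM with CTAB and 84.0 ± 30.8 CPM with InnuPREP, and was lower with CTAB in 6 of 6 palms. In CTAB and InnuPREP libraries PTE stood at 28.6 and 42.1 CPM in high 3, 36.9 and 69.1 CPM in high 8, 37.4 and 82.4 CPM in low 5, 40.0 and 92.0 CPM in low 6, 64.5 and 136 CPM in zero 2, and 32.8 and 82.0 CPM in zero 6. Every CTAB value but that of zero 2 lay below every InnuPREP value. The log2 difference was -1.03 ± 0.10 (SE; edgeR adjusted p 5.96e-08), or 2.05-fold lower with CTAB. The ratio of GPAT to PTE reads was accordingly 2.92-fold higher with CTAB, by 1.55 ± 0.25 on the log2 scale (SD over 6 palms; exact sign-flip permutation p 0.0313, the smallest that 6 palms allow, and 0.0625 after adjustment over 8 comparisons).

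**Figure D5:**
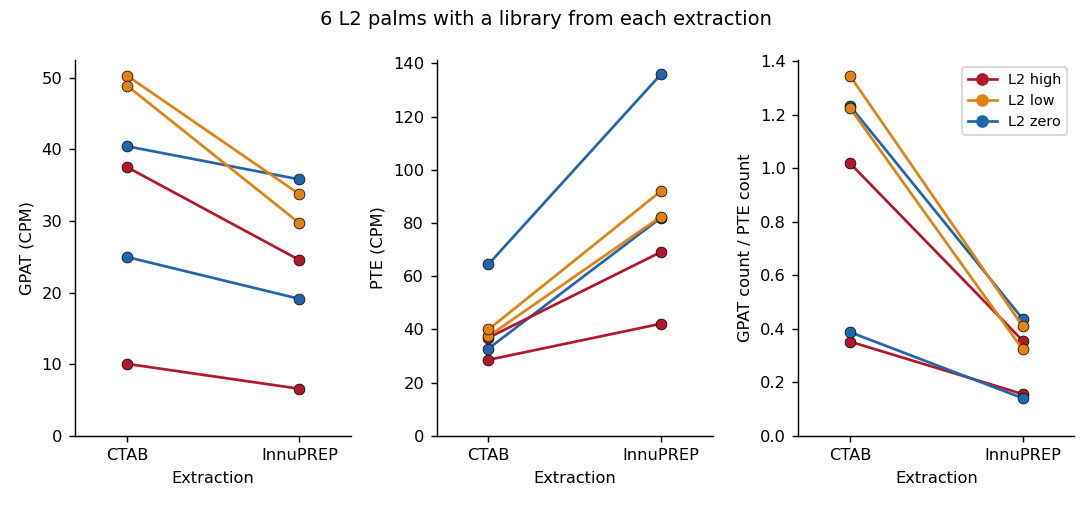
GPAT, PTE and the ratio of their read counts in the CTAB (left) and InnuPREP (right) libraries of the same 6 L2 palms, joined by palm and coloured by group. Every GPAT and ratio line falls towards InnuPREP and every PTE line climbs.

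The other 2 lipid genes were called as well, accD as higher with CTAB at 1.07 ± 0.10 and SACPD as lower at -0.77 ± 0.09 on the log2 scale (SE; edgeR adjusted p 1.77e-08 and 4.13e-07). The list of 4 thus had 2 genes called in each direction, with a median log2 difference of -0.13 beside -0.03 over all genes tested. Depth differed between the methods too, from 4215872 to 7580573 gene counts in the CTAB libraries of L2 and from 8773354 to 15004694 in the InnuPREP libraries. For depth and the shares that follow, all 20 InnuPREP libraries of L2 were used, including palms without a CTAB library. Reads with several alignments made up 24.9% ± 5.77 of the CTAB tables and 14.1% ± 2.78 of the InnuPREP tables (SD, n = 6 and 20). Plastid genes took 6.24% ± 1.19 of gene counts in the CTAB libraries and 3.07% ± 0.768 in the InnuPREP libraries, a shift in the direction of that of the plastid gene accD. Reads outside any gene made up 18.3% ± 1.75 of the CTAB tables and 9.83% ± 0.704 of the InnuPREP tables. The part of these measures in the shifts of GPAT, PTE, SACPD and accD was not tested. The order of the palms was partly kept between methods. Across the 6 palms log2 CPM of GPAT in the 2 libraries correlated at Pearson's r 0.976 (exact permutation p 0.00972, adjusted over 3 relations 0.0292) and Spearman's rho 0.829 (exact permutation p 0.0583, adjusted 0.0583). For PTE r was 0.888 (exact permutation p 0.0347, adjusted 0.0347) and rho 0.943 (exact permutation p 0.0167, adjusted 0.05). Without the 2 palms farthest from the median r over the other 4 fell to 0.44 for GPAT and 0.31 for PTE. Leaving out the extremes narrows the range, so these 4 palms cannot show whether the relation holds apart from them. For the log2 ratio r was 0.973 and, without 2 palms, 0.42.

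Agency could be compared with the extraction held constant in the CTAB libraries, where genotype and read length still differ with it. The lowest, median and highest GPAT values were 11.3, 29.3 and 45.7 CPM in L1, against 10.2, 39.4 and 51.1 CPM in L2, so the ranges overlapped almost throughout. GPAT averaged 29.8 ± 8.10 CPM in L1 and 35.9 ± 15.6 CPM in L2 (SD, n = 32 and 6), a log2 difference of -0.27 ± 0.21 (SE; 95% interval -0.68 to 0.15; edgeR adjusted p 0.319). PTE ran from 16.1 to 66.7 CPM in L1, with a median of 30.2 CPM, and from 29.1 to 65.6 CPM in L2, with a median of 37.7 CPM. It averaged 34.8 ± 10.4 CPM in L1 and 40.6 ± 12.9 CPM in L2, a log2 difference of -0.22 ± 0.18 (SE; 95% interval -0.59 to 0.14; edgeR adjusted p 0.347). Neither was called, in a contrast that called 36.2% of the 20019 genes tested. The log2 ratio differed by 0.08 (exact permutation p 0.914 after adjustment). Set against the 20 InnuPREP libraries of L2 in place of the CTAB ones, L1 had a GPAT difference of 0.35 (edgeR adjusted p 0.0434), which reverses its direction, and a PTE difference of -1.27 (edgeR adjusted p 5.24e-14). That fit differs from the CTAB one in extraction and in the L2 palms it holds. Among CTAB libraries the differences also moved with the palms included. With zero palms only, they were -0.07 for GPAT and -0.50 for PTE (edgeR adjusted p 0.880 and 0.306), and with L2 zero and low palms only, a subset chosen after seeing the data, -0.48 and -0.34 (edgeR adjusted p 0.0719 and 0.234). SACPD and accD did differ between the agencies' CTAB libraries, by -0.71 and 0.84 on the log2 scale (edgeR adjusted p 0.000461 and 0.0118). The plastid share, 11.4% ± 3.05 of gene counts in L1 and 6.24% ± 1.19 in the CTAB libraries of L2 (SD, n = 32 and 6), moved with accD, and its part in that difference was not tested.

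Whether low palms differed from zero palms in the same way at both agencies was tested as an interaction. L1 entered with CTAB and L2 with InnuPREP libraries, so extraction, read length and genotype differ with agency in this fit. For GPAT the low minus zero difference in L2 exceeded that in L1 by 0.07 ± 0.27 on the log2 scale (SE; 95% interval -0.48 to 0.62; edgeR adjusted p 0.980). For PTE the same difference of differences was -0.15 ± 0.27 (SE; 95% interval -0.69 to 0.40; edgeR adjusted p 0.931). Of the 20616 genes tested 0.0485% were called. The intervals span 0 for both genes and still allow sizeable differences between the agencies.

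Within the groups that had embryoid lines, no relation of either gene with their number passed its test. Over L2 high, L2 low and L1 low palms taken separately, 9 relations of GPAT, PTE or their ratio with log2 lines were computed. In the 8 high palms GPAT had r -0.34 (exact permutation p 0.428) and rho -0.12 (exact permutation p 0.793), and PTE had r -0.42 (exact permutation p 0.300) and rho -0.26 (exact permutation p 0.536). Without the 2 palms of most extreme line number r turned to 0.36 for GPAT and 0.66 for PTE. In the 15 L1 low palms r was 0.14 for GPAT and 0.06 for PTE (permutation p 0.626 and 0.835). After adjustment the permutation p of r was 0.953 in all 9.

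No relation between GPAT and PTE among palms passed its test under TMM scaling. Within groups, r between their log2 CPM was 0.44 in L2 high, -0.56 in L2 low, -0.54 in L2 zero, -0.29 in L1 low and -0.53 in L1 zero palms (n = 8, 6, 6, 15 and 17). Without the 2 palms of most extreme GPAT in each group, r turned to 0.77 in L2 low and 0.60 in L2 zero palms (n = 4 each), so both negative values rest on those palms. It was then 0.06 in L2 high and -0.21 in L1 low palms. L1 zero palms had the smallest permutation p, 0.0272, or 0.136 after adjustment over the 5 groups, with rho -0.32 (permutation p 0.209) and r -0.46 without 2 palms. It was the group in which 4 palms of high PTE had GPAT at or below the group's median. With CPM by total gene counts in place of TMM, r was -0.67 in L1 zero and -0.61 in L1 low palms (permutation p 0.0142 and 0.0430 after adjustment).

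Within groups, both genes varied among palms about as much as other genes of like level. The spread is edgeR's dispersion per gene after group means were fitted, so differences between groups are left out. edgeR also draws each gene's dispersion towards that of genes of like level, which favours closeness to their median. The biological coefficient of variation of GPAT was 31.5% in L2 and 28.9% in L1, where genes within 1 log2 unit of its level had medians of 26.8% and 31.9%. For PTE it was 26.9% in L2 and 30.6% in L1, beside medians of 26.3% and 31.6%. Among genes of like level GPAT stood at percentile 66.5 in L2 and 39.3 in L1, and PTE at percentile 52.5 in L2 and 47.0 in L1.

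The genes whose pattern was most like each member's were picked as extremes of Pearson's r of log2 CPM, so they carry no test. Over the 20 L2 InnuPREP libraries they were LOC105055777 (r 0.94) and LOC105035700 (r 0.93) for GPAT, with LOC105042311 (r -0.96) and LOC105050358 (r -0.94) the most opposed. Of the 18076 genes compared, 505 had r above 0.8 with GPAT and 409 below -0.8, across libraries that share the difference between high and zero-low palms. PTE had far fewer such genes, 35 and 36, led by LOC105052002 (r 0.90) and LOC105040265 (r 0.88), with LOC105044991 (r -0.88) and LOC105046640 (r -0.86) the most opposed. PTE itself had r 0.40 with GPAT in these libraries, and -0.05 once group means were removed. Over the 32 L1 libraries, where no gene was called between groups, the highest r with GPAT were 0.81 for LOC105057705 and 0.77 for LOC105038145, and the lowest -0.73 for LOC105045702 and -0.71 for LOC105039665. For PTE in L1 they were 0.79 for LOC105034342 and 0.78 for LOC105045617, against -0.77 for LOC105034223 and -0.77 for LOC105057848.

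Next to GPAT in the EG11 gene table stand LOC105043955 and LOC105043956, and no gene overlaps it. The 2 neighbours differed between high and zero-low palms in opposite directions, by 0.58 for LOC105043955 and by -0.53 for LOC105043956 on the log2 scale (edgeR adjusted p 0.00661 and 0.0207). This contrast called 40.5% of the 20008 genes tested, 20.3% as lower, so calls in either direction do not set the neighbours apart. No gene overlaps PTE either, and neither of its neighbours gave values in L2.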

How the data were processed

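Spear leaf RNA of 52 palms was sequenced in 58 QuantSeq 3′ libraries. The deposited values are the authors' read counts per gene, whole and unnormalized, in tables of 27986 genes and 5 summary lines, which were left out. The tools listed per the submitters' processing notes are STAR 2.7.2b, HTSeq 0.11.2 and bcl2fastq. Their settings, the strand setting and the genome build are not given in the sources used here. Of the identifiers 25047 were found in the EG11 gene table, used for names and neighbours only, so no coordinates or sequences are given.

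Counts were fitted over all genes with edgeR 4.0.16 in R 4.3.3 (TMM, filterByExpr, robust glmQLFit, glmQLFTest, Benjamini-Hochberg adjustment, call below 0.05). CPM are scaled by TMM within each fit beside its test, and over all 58 libraries in the overview of levels, the scatter and the panel of levels. TMM over 58 libraries also served the likeness of genes and the correlations with lines and of GPAT with PTE. A prior count of 2 entered the log2 levels, the likeness of genes and the check of pairing by palm. Correlations with lines, of GPAT with PTE and between extractions took log2 CPM without it. The ratio added 0.5 to each count. Permutation tests (scipy 1.17.1) were two-sided, exact where at least 1 of the groups had under 10 palms, and with 100000 resamples elsewhere. CTAB and InnuPREP libraries are paired by palm: deviations from method means correlated at 0.666 to 0.795 within palms and at most at 0.237 between palms. The fits were tested on simulated counts. Alternatives included limma 3.58.1 (voom) and DESeq2 1.42.0. GPAT, PTE and the lipid list were chosen with earlier results of these data known. The named genes are GPAT, PTE, the lipid list and, by Pearson's r with each member in each agency, the 2 highest and 2 lowest genes of mean log2 CPM of at least 1. The neighbours and the split of PTE in L1 were added after values were seen.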

Additional observations from a re-analysis of the deposited data

Results flagged for a closer look

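GPAT in L2 high 8, the Jen Avros Yangambi palm and the only high palm whose identifier does not begin with U, stood at 21.8 CPM, far above the other 7 high palms, of which the next stood at 11.99 CPM. On the CPM scale the gap was 0.612 of the group's range, beyond Dixon's critical value of 0.526 for 8 values. The flag held on the CPM scale only. On the log2 scale, with TMM over 58 libraries, high 8 stood at 4.60, the next high palm at 3.73 and the lowest at 2.72. That gap falls short of the same critical value. The second library of the same palm, from CTAB, was also higher in GPAT than that of high 3, at 37.5 against 10.0 CPM.

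The log2 ratio of GPAT to PTE in L2 low 2 was -2.84, and the next lowest of the 6 low palms stood at -1.63. On this log2 scale the gap was 0.693 of the range, beyond the critical value of 0.625 for 6 values. The plain ratio was 0.139 in low 2, 0.323 in the next low palm and 0.468 in the highest. On that plain scale the gap falls short of the critical value. This palm had the lowest GPAT and the highest PTE of its group. In all, 9 sets of values were examined and 2 stood out, where chance gives about 1 in 20. GPAT and PTE were examined in CPM and the ratio on the log2 scale, and both flags depended on that choice.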

How the results depend on the processing

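Of 147 alternatives for GPAT, PTE and their ratio, apart from leaving out single palms, 135 kept direction and side of the threshold, 4 lost the call, 4 gained one and 4 reversed. The GPAT difference of L2 high against zero-low palms lost its call in Jen Avros palms alone (-1.47), with a term for identifiers beginning with U (-0.28) and in CTAB libraries alone (-0.79, edgeR adjusted p 0.569); the last 2 were chosen after seeing the data. PTE in that contrast gained a call with voom (-0.38). In L1 low against zero palms PTE turned to -0.0047 with genotype as a term and to -0.059 in Dumpy Avros palms. L1 against the InnuPREP libraries of L2 gave 0.35 for GPAT and -1.27 for PTE. Without the palm block, CTAB minus InnuPREP gave 0.51 for GPAT (edgeR adjusted p 0.431, call lost) and -1.06 for PTE (edgeR adjusted p 0.0175). By total-count CPM, GPAT with lines in L2 low palms had r 0.10, and GPAT with PTE had r -0.67 in L1 zero and -0.61 in L1 low palms.

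Leaving out single palms gave ranges of -1.43 to -1.12 for GPAT and -0.44 to -0.30 for PTE in high against zero-low palms, -0.20 to 0.025 for GPAT and -0.24 to 0.052 for PTE in L2 low against zero palms, and, for the log2 ratio, -1.02 to -0.81 in high against zero-low, -1.11 to -0.75 in high against zero, -1.13 to -0.78 in high against low and -0.22 to 0.26 in L2 low against zero palms. Without high 8, the ratio of high palms was called against zero palms (-1.01) and against low palms (-1.03), as it was without zero 2 against zero palms and without low 2 against low palms. In these fits the cause was not tested, beyond fewer palms in each.

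Genes called moved by over 1.5 times in 15 of 60 alternatives. High against zero-low palms called 8113 genes, 1241 with genotype, 1109 with the quality shares, 595 in Jen Avros palms, 1 with the identifier term and 0 in CTAB libraries. L2 low against zero palms called 36, 16 without a filter, 328 with DESeq2, 1260 with voom and 3 to 147 without single palms. The labels of L1 called 0, 5 without a filter and 18 with DESeq2, and the interaction 10, 585 with voom and 77 with DESeq2. CTAB against InnuPREP called 11198 and 2875 without the block, and L1 against L2 CTAB libraries 7255, 13587 against InnuPREP libraries and 3361 in zero palms. Replicate numbers only name palms, and no pairing was made outside the 6 palms. With 2 high palms, the CTAB libraries alone gave GPAT an SE of 0.52, against 0.21 in the 20 InnuPREP libraries.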
